A study of Mus musculus with 6 samples.

Results

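The 40 mouse genes described here are those of the amino acid response driven by the transcription factor ATF4 and of the unfolded protein response of the endoplasmic reticulum (ER). They were taken by symbol from a list of names, out of 52609 annotated genes, and fall by role into 27 amino acid response genes and 13 ER genes. All 40 were among the 15448 genes that passed the filter on low counts. The RNA came from mouse epiblast stem cells, a primed pluripotent type derived from dissected epiblasts. Per the labels, they grew on inactivated mouse embryonic fibroblasts, called feeder cells, in Knockout-DMEM supplemented with serum replacement, non-essential amino acids, GlutaMAX and β-mercaptoethanol. The group with Activin A had 3 libraries and received Activin A at 20 ng/mL with FGF2 at 10 ng/mL, the Wnt secretion inhibitor IWP2 at 5 µM and SB431542 at 2 µM. SB431542 inhibits type I receptor kinases used by Activin, Nodal and TGF-beta, so the cells given Activin A carried this inhibitor too. The group without Activin A had 3 libraries with the same FGF2, IWP2 and SB431542. The genotype label only restates the inhibitors and the missing Activin A, and the labels used here give no strain. The series' design text speaks of 2 lines, and if the groups are those lines, line and Activin A cannot be told apart. One growth factor label, that of replicate 1 without Activin A, names Activin A against the library's title, and the treatment text names it for all 6.

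ATF4 is made when kinases that sense stress, such as GCN2 for missing amino acids and PERK for unfolded proteins in the ER, phosphorylate the initiation factor eIF2 and lower translation in general. It then binds composite C/EBP-ATF elements and raises genes for amino acid synthesis, uptake and feedback. The ER response has further branches, in which ATF6 is cleaved and IRE1 splices Xbp1 mRNA, and these act through ER stress response elements in the promoters of chaperone genes. Activin A signals through SMAD2 and SMAD3, which support the primed pluripotent state.

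RefSeq promoters (GRCm38.p6, 250 bases before to 50 after a start) were found for 35 of the 40 genes, and the promoters of Cth, Slc7a3, Slc7a5, Slc1a5 and Atf6 were not used here. The C/EBP-ATF letters TGATGNAA, searched on both strands, were found in 8 of the 35 genes and in 3.97% of 32851 promoters. The 8 were Trib3, Chac1, Slc7a11, Slc1a4 and Vldlr, which were all higher without Activin A, Asns and Pycr1, which were both lower, and Herpud1, which was not called either way. The ER stress response element, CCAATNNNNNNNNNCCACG, was found in 5 genes, Hspa5, Hsp90b1, Calr, Canx and Dnajc3, and in 0.119% of all promoters. Its second form, ATTGG and CCACG parted by any 1 base, was found only in Herpud1 among the 35 and in 0.0365% of all promoters; the letters of these motifs do not overlap each other in the stretches printed. A match is a run of letters and not a site shown to be bound. Of the genes with a match, Trib3, Slc1a4 and Dnajc3 are not printed below. The letters lay after the start in Trib3, crossed it in Slc1a4 and lay upstream in Dnajc3. The stretches below are shown because genes with the same letters upstream were higher, lower or not called, and capitals mark the matched letters on either strand. They run 5′ to 3′ on the gene's strand, and those of Hspa5, Asns and Vldlr lie in an annotated exon of the same gene and were kept to 30 bases.
Chac1, chr2:119350999-119351106, plus strand: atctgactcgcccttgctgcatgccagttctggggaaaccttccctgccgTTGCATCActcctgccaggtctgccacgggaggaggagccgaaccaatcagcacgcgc
Slc7a11, chr3:50443615-50443729, minus strand: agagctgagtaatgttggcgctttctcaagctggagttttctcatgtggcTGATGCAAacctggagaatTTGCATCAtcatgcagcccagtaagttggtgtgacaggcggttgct
Vldlr, chr19:27216809-27216838, plus strand: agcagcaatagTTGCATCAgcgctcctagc
Asns, chr6:7693214-7693243, minus strand: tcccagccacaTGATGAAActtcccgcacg
Pycr1, chr11:120643794-120643901, minus strand: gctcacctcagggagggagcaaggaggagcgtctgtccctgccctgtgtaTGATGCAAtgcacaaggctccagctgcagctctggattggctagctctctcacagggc
Hspa5, chr2:34772020-34772049, plus strand: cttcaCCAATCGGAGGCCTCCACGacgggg
Hsp90b1, chr10:86705510-86705694, minus strand: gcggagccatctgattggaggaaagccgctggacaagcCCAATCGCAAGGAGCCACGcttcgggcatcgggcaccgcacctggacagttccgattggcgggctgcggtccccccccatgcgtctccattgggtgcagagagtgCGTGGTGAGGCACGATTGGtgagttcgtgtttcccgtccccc
Calr, chr8:84847025-84847143, minus strand: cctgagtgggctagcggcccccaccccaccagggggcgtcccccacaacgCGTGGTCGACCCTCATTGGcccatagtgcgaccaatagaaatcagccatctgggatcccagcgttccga
Canx, chr11:50325750-50325868, minus strand: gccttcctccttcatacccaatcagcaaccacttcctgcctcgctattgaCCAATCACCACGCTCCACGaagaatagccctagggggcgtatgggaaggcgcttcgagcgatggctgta
Herpud1, chr8:94386267-94386428, plus strand: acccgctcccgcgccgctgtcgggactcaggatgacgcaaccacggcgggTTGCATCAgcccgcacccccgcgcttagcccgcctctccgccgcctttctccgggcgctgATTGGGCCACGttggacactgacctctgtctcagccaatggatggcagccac

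The libraries held 9946521 to 16350923 estimated reads, with the lowest total in the library with Activin A replicate 3. The defining markers of epiblast stem cells were present in all 6 libraries. Without Activin A 7 of 10 fell and 2 rose (90.0% called by the test below, which called 29.2% of all tested genes). Their summed level was 1815 to 1856 CPM (reads scaled by library total with TMM) with Activin A and 1257 to 1285 CPM without it. None of 20 fibroblast feeder markers was at 0 in any library, and of the 19 that passed the filter 4 rose, 7 fell and 8 were not called (57.9% called). Their summed level was 938 to 1020.0 CPM with Activin A and 1345 to 1383 CPM without it, so that it differed between the same libraries as the called genes below. This sum was higher without Activin A although more of the markers fell than rose. The part of feeder cells in the results was not tested, and fewer cells of a type and less RNA per cell cannot be told apart in such bulk samples. The labels do not say that replicates were separate cultures, so p-values measure the spread between these samples only.

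Without Activin A, 22 of the 40 genes changed, 9 upward and 13 downward, by edgeR's quasi-likelihood test with Benjamini-Hochberg adjustment over all tested genes at 0.05. That is 55.0% of the 40, where the same test called 29.2% of all 15448 genes, 14.0% upward and 15.2% downward. The amino acid response genes went both ways, with 9 higher, 8 lower and 10 not called. Of the ER genes 5 fell, none rose and 8 were not called. The CPM values of the groups did not overlap for 27 of the 40 genes, against 42.9% of all tested genes. The changes were mostly small: 6 of the 40 were called at 1.5-fold or more, namely Trib3, Slc7a1 and Vldlr upward and Cth, Cbs and Slc7a3 downward, where 10.6% of all tested genes were. The median log2 fold change (without minus with Activin A) was 0.069 for the amino acid response genes and -0.077 for the ER genes, beside 0.0012 for all tested genes. With the library with Activin A replicate 3 left out, the median of the amino acid response genes was -0.01. Per length, in TPM (reads scaled by transcript length and library total), levels were taken from the transcript of each gene with the highest mean share of reads, since short annotated fragments weigh heavily in TPM: in 19 of the 40 genes this transcript held under 50% of the summed TPM in at least 1 library. Summed over these transcripts, the 27 amino acid response genes were at 654 to 728 TPM with Activin A and 644 to 665 TPM without it, with overlap. In CPM their sum was 2847 to 2973 with Activin A and 2796 to 2833 without it, slightly lower and without overlap. The 13 ER genes were at 734 to 884 TPM with and 635 to 681 TPM without, without overlap.

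**Figure D1:**
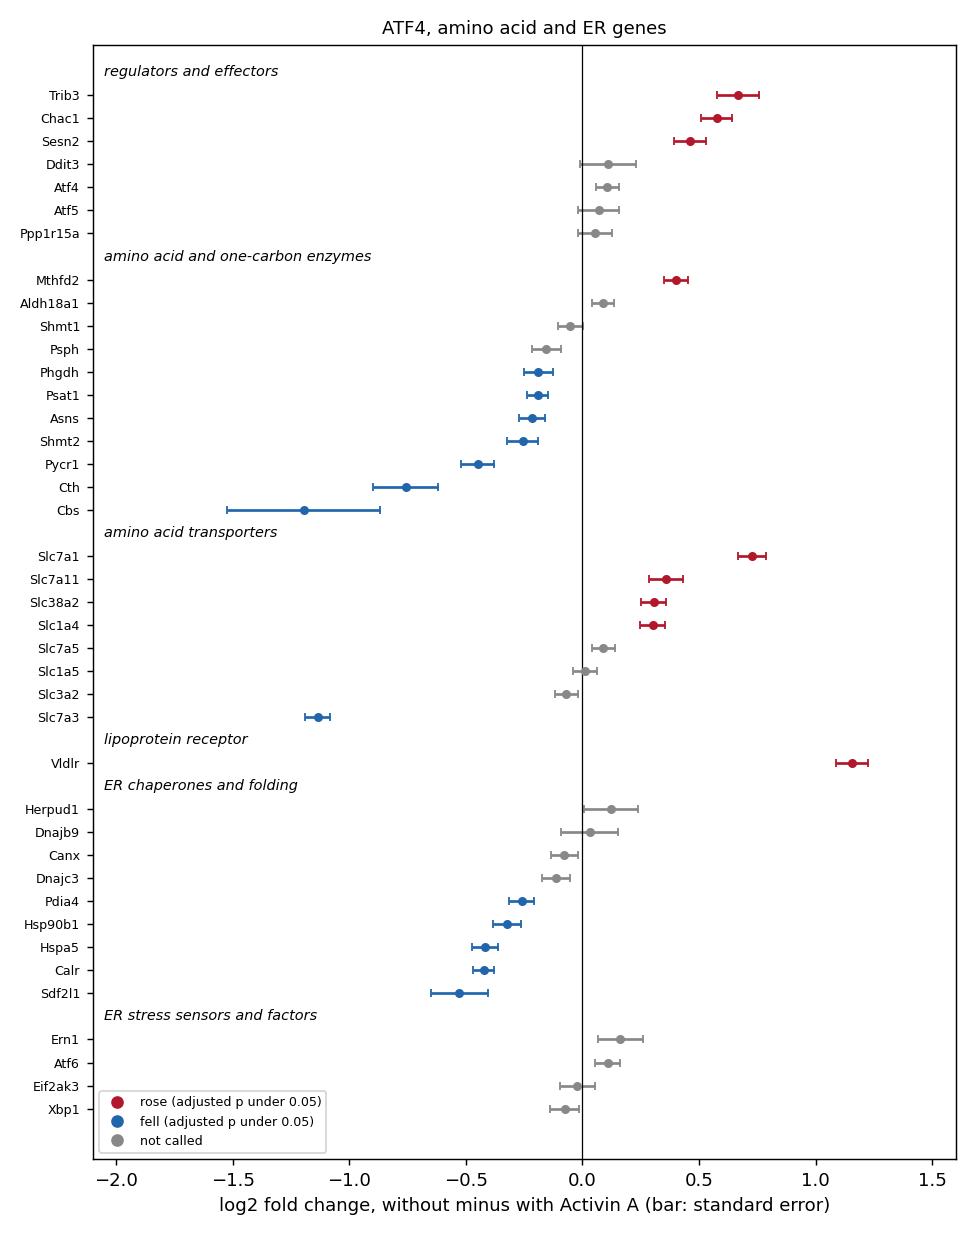
Log2 fold change (x axis, without minus with Activin A) of the 40 genes (y axis), grouped by role, with the standard error as bars. Slc7a1, Trib3 and Vldlr lie farthest to the right, Slc7a3 and Cbs farthest to the left, and no ER gene was called to the right of 0.

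**Figure D2:**
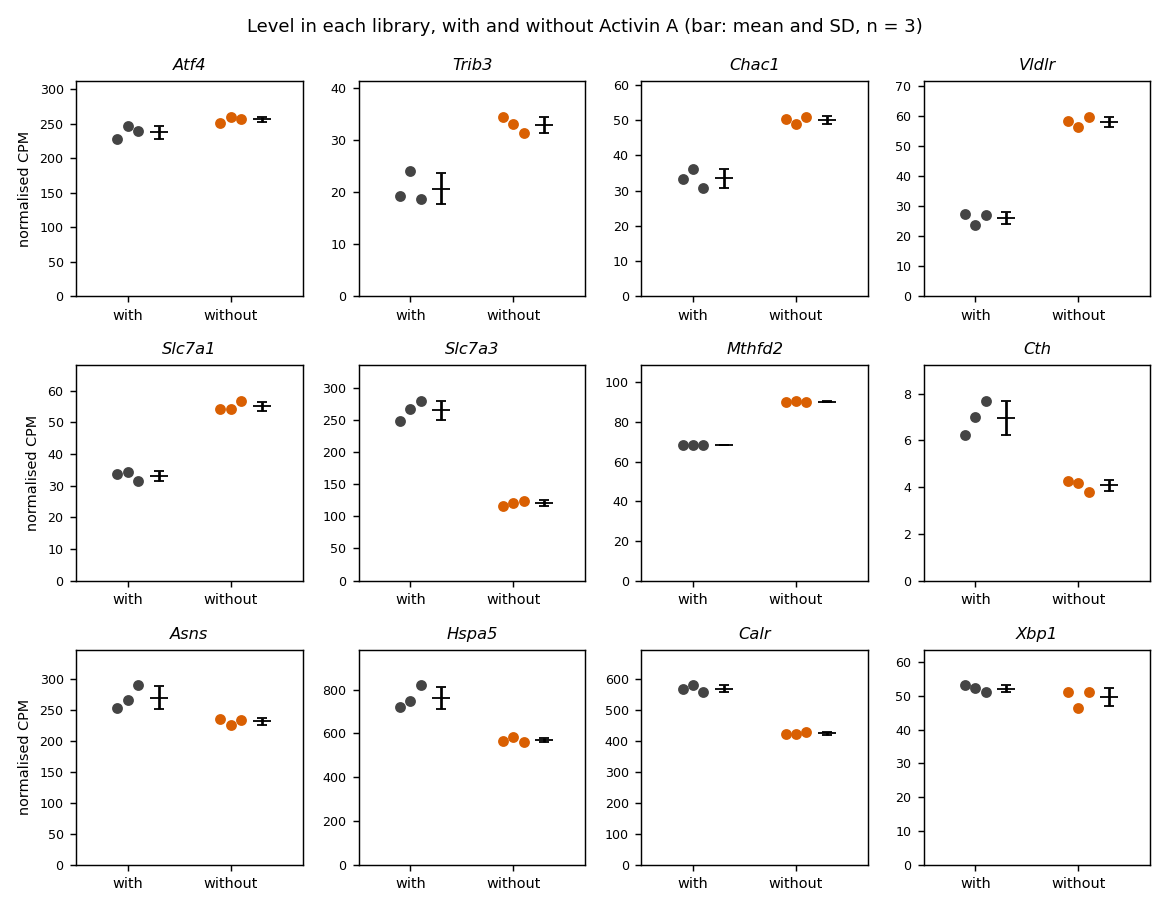
TMM-normalised CPM (y axis, from 0) of 12 of the genes in the libraries with and without Activin A (x axis); a point is 1 library, and the bar gives the mean and SD of the 3. The groups lie far apart for Vldlr, Slc7a1 and Slc7a3, are close without overlap for Atf4, and overlap for Xbp1.

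Among the regulators of the response, 3 targets and feedback genes of ATF4 were higher without Activin A (Trib3, Chac1 and Sesn2) and none was lower, while Atf4 itself, Atf5, Ddit3 and Ppp1r15a were not called. That is 42.9% called of these 7, beside 29.2% of all tested genes. Atf4 mRNA (ENSMUSG00000042406.8, chr15:80255184-80257541, plus strand, on GRCm38 as for all genes here) was at 228, 247 and 239 CPM with Activin A and 252, 260.0 and 257 CPM without it. Every library without Activin A was above every library with it, but by little. The log2 fold change was 0.11 ± 0.048 (SE; 95% interval 0.003 to 0.21), with an adjusted p = 0.115 by edgeR. Of the 18 alternatives, 3 called it. These were leaving out the library with Activin A replicate 3 (adjusted p = 0.0254 by edgeR) and removing the trend over GC content and gene length (adjusted p = 0.00793 by edgeR), also with a replicate block. Over all alternatives the log2 fold change of Atf4 was 0.074 to 0.162. Per length the groups overlapped in summed TPM and in the leading transcript Atf4-201. That transcript was at 84.9, 89.8 and 97.0 TPM with Activin A and 92.8, 103 and 99.5 TPM without it. ATF4 is controlled mainly by translation, which mRNA levels do not show.

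Trib3, a pseudokinase that ATF4 and DDIT3 raise and that feeds back on them (ENSMUSG00000032715.9, chr2:152337422-152344032, minus strand), was at 19.3, 24.1 and 18.8 CPM with Activin A and 34.5, 33.1 and 31.5 CPM without it. The groups did not overlap, and the rise was 1.59-fold (log2 fold change 0.67 ± 0.091 SE, adjusted p = 6.15e-05 by edgeR). Chac1, which breaks down glutathione (ENSMUSG00000027313.3, chr2:119351229-119354381, plus strand), was at 33.4, 36.1 and 30.8 CPM with Activin A and 50.5, 48.8 and 50.9 CPM without it. All 3 libraries without Activin A lay above the others, with a 1.49-fold rise (log2 fold change 0.58 ± 0.067 SE, adjusted p = 1.24e-05 by edgeR). Sesn2, a stress-induced leucine sensor upstream of mTORC1, rose 1.38-fold and was at 60.8 ± 6.03 CPM with Activin A and 84.1 ± 1.64 CPM without it (SD, n = 3 each), a difference without overlap (log2 fold change 0.46 ± 0.067 SE, adjusted p = 1.12e-04 by edgeR).

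Ddit3, which encodes the stress factor CHOP (ENSMUSG00000025408.15, chr10:127290774-127296288, plus strand), was low, at 7.95, 6.88 and 7.18 CPM with Activin A and 7.94, 7.41 and 8.52 CPM without it. The groups overlapped, and the 95% interval of the log2 fold change was -0.14 to 0.36 (adjusted p = 0.543 by edgeR). A second annotated Ddit3 model of 105 bases held 0 reads with Activin A and 0.208 to 0.458 reads without it, which its short length turned into 1.98 to 4.34 TPM; it was kept apart. Atf5, a further factor of the ATF4 family, was at 19.7 ± 2.28 CPM with Activin A and 20.8 ± 0.400 CPM without it (SD, n = 3 each), and its interval was -0.12 to 0.26. Ppp1r15a, the eIF2 phosphatase subunit GADD34, was at 51.0 ± 5.07 CPM with Activin A and 53.2 ± 2.74 CPM without it (SD, n = 3 each), with an interval of -0.10 to 0.21. Both of these overlapped between the groups.

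The enzymes of amino acid synthesis and one-carbon metabolism were mostly lower: of 11, 7 fell without Activin A, 1 was higher and 3 were not called. That is 72.7% called, beside 29.2% of all tested genes, of which 15.2% were called lower. The median log2 fold change of the enzymes was -0.19. All 3 steps of serine synthesis from glycolysis lay lower, with Phgdh and Psat1 called and Psph not. Phgdh, the first enzyme (ENSMUSG00000053398.11, chr3:98313170-98339990, minus strand), was at 243, 256 and 214 CPM with Activin A and 214, 202 and 211 CPM without it. The nearest libraries of the groups were at 214.4 and 213.5 CPM, so that the groups barely parted (log2 fold change -0.19 ± 0.061 SE, adjusted p = 0.0305 by edgeR). Psat1, the aminotransferase of the next step (ENSMUSG00000024640.9, chr19:15904678-15947337, minus strand), was at 374, 383 and 386 CPM with Activin A and 336, 334 and 331 CPM without it. Here the groups lay well apart for a small change (log2 fold change -0.19 ± 0.045 SE, adjusted p = 0.00499 by edgeR). Psph, the phosphatase of the last step (ENSMUSG00000029446.14, chr5:129765558-129787449, minus strand), was at 45.2, 47.4 and 42.9 CPM with Activin A and 39.8, 41.6 and 40.5 CPM without it. No library without Activin A reached the others, yet the change was not called (log2 fold change -0.16 ± 0.062 SE, adjusted p = 0.0732 by edgeR).

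Shmt2 turns serine into glycine in mitochondria (ENSMUSG00000025403.5, chr10:127517123-127522444, minus strand), and its level was 164, 174 and 141 CPM with Activin A and 133, 132 and 137 CPM without it. Without overlap in CPM, it fell by 0.26 on the log2 scale (SE 0.067, adjusted p = 0.0096 by edgeR). Over the alternatives Shmt2 ran from -0.34 to -0.032 on that scale, and its groups overlapped in the leading transcript in TPM. Its cytosolic counterpart Shmt1 was at 81.1 ± 3.42 CPM with Activin A and 78.3 ± 0.725 CPM without it (SD, n = 3 each) and was not called (95% interval -0.17 to 0.063). Mthfd2, the mitochondrial enzyme that takes up the one-carbon unit released by SHMT2 (ENSMUSG00000005667.8, chr6:83305691-83325908, minus strand), was the enzyme that rose, at 68.3, 68.6 and 68.1 CPM with Activin A and 90.1, 90.4 and 90.2 CPM without it. The SD was 0.214 CPM with and 0.174 CPM without Activin A (n = 3 each), and the rise was 1.32-fold (log2 fold change 0.40 ± 0.051 SE, adjusted p = 3.16e-05 by edgeR).

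Asns makes asparagine from aspartate and glutamine and is a standard target of ATF4 (ENSMUSG00000029752.12, chr6:7675169-7693254, minus strand). It was at 254, 266 and 289.8 CPM with Activin A and 236, 226 and 234 CPM without it, lower in every library without Activin A (log2 fold change -0.22 ± 0.055 SE, adjusted p = 0.00766 by edgeR). Pycr1, which completes proline synthesis in mitochondria (ENSMUSG00000025140.15, chr11:120635712-120643769, minus strand), was at 52.2, 52.8 and 46.4 CPM with Activin A and 39.8, 35.8 and 35.8 CPM without it. Every library without Activin A was below the others, and Pycr1 was 1.36-fold lower (log2 fold change -0.45 ± 0.07 SE, adjusted p = 2.05e-04 by edgeR). Aldh18a1, which opens proline synthesis (ENSMUSG00000025007.13, chr19:40550257-40588463, minus strand), was at 117, 120.5 and 115 CPM with Activin A and 126, 126 and 124 CPM without it. Its libraries without Activin A were the higher ones, but the change was not called (log2 fold change 0.088 ± 0.049 SE, adjusted p = 0.2 by edgeR).

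The transsulfuration enzymes, which lead from homocysteine to cysteine, were rare and lower without Activin A. Cth (ENSMUSG00000028179.12, chr3:157894248-157925077, minus strand) was at 6.23, 7.03 and 7.68 CPM with Activin A and 4.25, 4.18 and 3.81 CPM without it. The groups did not overlap, and Cth was 1.69-fold lower (log2 fold change -0.76 ± 0.14 SE, adjusted p = 8.19e-04 by edgeR), from 51 to 102 reads per library. Cbs (ENSMUSG00000024039.15, chr17:31608894-31637238, minus strand) was at 2.02, 1.46 and 1.90 CPM with Activin A and 0.425, 1.15 and 0.748 CPM without it, from only 6 to 33 reads per library. It was 2.29-fold lower (log2 fold change -1.20 ± 0.33 SE, adjusted p = 0.013 by edgeR), and DESeq2 did not call it (adjusted p = 0.0944). The size of this fall was not settled: with the transcript length offset the log2 fold change was -3.79, and with both doubted libraries left out -0.88. Its summed TPM, 5.05, 0.742 and 4.77 with Activin A and 0.120, 0.345 and 0.215 without it, was carried in 2 of the libraries by the 230-base transcript Cbs-206, at 4.51 and 3.93 TPM.

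Summed over transcripts in TPM, the groups of Phgdh, Psat1, Psph, Shmt2 and Aldh18a1 overlapped, while in the leading transcript alone those of Phgdh and Psat1 did not. Of the 8 falling amino acid response genes, 3 (Cth, Cbs and Slc7a3) were called with the transcript length of each library as an offset and 2 (Cth and Slc7a3) with limma on log2(TPM + 1). Asns, Psat1, Phgdh, Shmt2 and Pycr1 were called in neither. Leaving out 1 library ended the call of Asns (without Activin A replicate 2, adjusted p = 0.0596 by edgeR), of Shmt2 (with Activin A replicate 1 or without Activin A replicate 1 or 2, 0.0504 to 0.056), of Cbs (with Activin A replicate 1 or without Activin A replicate 1 or 3, 0.0525 to 0.0751) and of Phgdh (any library but with Activin A replicate 3, 0.0803 to 0.147), and Psph was called without the library with Activin A replicate 3 (adjusted p = 0.00973 by edgeR).

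Of the 8 amino acid transporters, 4 rose without Activin A, 1 fell and 3 were not called (62.5% called, beside 29.2% of all tested genes). The sharpest contrast was between Slc7a1 (CAT1) and Slc7a3 (CAT3), which both carry arginine, lysine and ornithine into the cell. Slc7a3 (ENSMUSG00000031297.14, chrX:101079210-101086020, minus strand) was at 249, 267 and 279 CPM with Activin A and 116, 121 and 124 CPM without it. The groups lay far apart, and Slc7a3 was 2.20-fold lower without Activin A (log2 fold change -1.14 ± 0.055 SE, adjusted p = 1.27e-09 by edgeR). Slc7a1 (ENSMUSG00000041313.14, chr5:148327410-148399904, minus strand) was at 33.5, 34.4 and 31.4 CPM with Activin A and 54.1, 54.2 and 56.7 CPM without it. It was 1.66-fold higher without Activin A (log2 fold change 0.73 ± 0.061 SE, adjusted p = 4.75e-07 by edgeR). Per length, Slc7a3 was the more abundant of the pair: the ratio of the leading transcripts in TPM, Slc7a3-201 over Slc7a1-201, was 22.3, 22.4 and 25.8 with Activin A and 6.26, 6.18 and 6.22 without it. Both calls held in all 18 alternatives, but limma on log2(TPM + 1) did not call the other 3 that rose, Slc7a11, Slc38a2 and Slc1a4 (adjusted p = 0.0911, 0.0948 and 0.058).

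Slc7a11, the light chain of the cystine-glutamate exchanger (ENSMUSG00000027737.10, chr3:49892526-50443614, minus strand), was at 53.0, 56.0 and 47.1 CPM with Activin A and 70.2, 69.5 and 61.4 CPM without it. Without overlap, it rose 1.28-fold (log2 fold change 0.36 ± 0.073 SE, adjusted p = 0.00171 by edgeR), and lost its call with the trend over GC content and gene length removed (log2 fold change 0.24, adjusted p = 0.328). Slc38a2 (SNAT2), a sodium-coupled carrier of small neutral amino acids (ENSMUSG00000022462.7, chr15:96687392-96699730, minus strand), was at 169, 160.5 and 178 CPM with Activin A and 215, 199 and 212 CPM without it. It rose 1.24-fold without overlap (log2 fold change 0.30 ± 0.053 SE, adjusted p = 5.62e-04 by edgeR). Slc1a4 (ASCT1), an exchanger of alanine, serine and cysteine (ENSMUSG00000020142.12, chr11:20302180-20332713, minus strand), was at 69.2, 71.7 and 68.0 CPM with Activin A and 87.2, 86.2 and 84.3 CPM without it. It rose by nearly the same amount, 1.23-fold (log2 fold change 0.30 ± 0.053 SE, adjusted p = 5.74e-04 by edgeR).

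The large neutral amino acid carrier Slc7a5 (LAT1), its heavy chain partner Slc3a2 and the glutamine carrier Slc1a5 (ASCT2) were not called. Slc7a5 was at 163 ± 5.65 CPM with Activin A and 173 ± 2.38 CPM without it (SD, n = 3 each), with a 95% interval of the log2 fold change of -0.013 to 0.19. Slc3a2 (ENSMUSG00000010095.13, chr19:8706882-8723369, minus strand), which is shared by Slc7a5 and Slc7a11, was at 162, 166 and 155 CPM with Activin A and 155, 151 and 154 CPM without it. Its groups overlapped (adjusted p = 0.322 by edgeR), and it was called lower without the library with Activin A replicate 3 (log2 fold change -0.10, adjusted p = 0.0379). Slc1a5 was at 104 ± 3.95 CPM with Activin A and 105 ± 2.48 CPM without it (SD, n = 3 each), with an interval of -0.10 to 0.12.

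Vldlr, a lipoprotein receptor that ATF4 can raise under ER stress (ENSMUSG00000024924.14, chr19:27216484-27254231, plus strand), had the largest rise of the 40. It was at 27.2, 23.8 and 27.1 CPM with Activin A and 58.1, 56.2 and 59.6 CPM without it, so that every library without Activin A was above 2 times the level of any library with it. The rise was 2.23-fold (log2 fold change 1.16 ± 0.068 SE, adjusted p = 1.01e-08 by edgeR). The transcript with the highest mean share of its reads, Vldlr-201, is annotated for nonsense-mediated decay and held 17.4%, 52.0% and 49.6% with Activin A and 41.5%, 47.7% and 43.9% without it. The protein-coding Vldlr-202, of 3260 bases beside 3253 for Vldlr-201, held 39.98% in the library with Activin A replicate 1. In the other libraries Vldlr-202 held 1.94% to 9.92%. The low share of Vldlr-201 thus fell in the library where Vldlr-202 was highest. How well the counting parted these transcripts was not tested. The protein-coding Vldlr-207 held 36.3% to 39.0% with and 31.5% to 34.6% without.

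Among the ER genes, 5 of the 9 chaperones and folding factors fell without Activin A and none rose, with a median log2 fold change of -0.26. That is 55.6% called, beside 29.2% of all tested genes. Hspa5 encodes BiP, the ER chaperone of the HSP70 family and the usual readout of the unfolded protein response (ENSMUSG00000026864.13, chr2:34771970-34777547, plus strand). It was at 721, 748 and 819 CPM with Activin A and 568, 582 and 562 CPM without it. All libraries without Activin A lay below the others, 1.34-fold (log2 fold change -0.42 ± 0.054 SE, adjusted p = 3.39e-05 by edgeR). Hsp90b1, the ER paralogue of HSP90 also called GRP94 (ENSMUSG00000020048.13, chr10:86690209-86705509, minus strand), was at 1024, 1041 and 1207 CPM with Activin A and 854, 896 and 863 CPM without it. It was 1.25-fold lower (log2 fold change -0.32 ± 0.061 SE, adjusted p = 0.00101 by edgeR), and its coding transcript Hsp90b1-201, at 222, 215 and 272 TPM with Activin A and 187, 205 and 185 TPM without it, was the most abundant leading transcript of the 40. The 268-base retained-intron transcript Hsp90b1-205 held 2.42% to 3.01% of the reads but 516 to 785 TPM.

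Calr and Canx, the soluble and the membrane-bound lectin chaperone of the same glycoprotein folding cycle, stood on different sides of the threshold. Calr (ENSMUSG00000003814.8, chr8:84841850-84846934, minus strand) was at 569, 579 and 558 CPM with Activin A and 422, 422 and 429 CPM without it. It was 1.34-fold lower without overlap (log2 fold change -0.42 ± 0.045 SE, adjusted p = 5.52e-06 by edgeR), a call that held in all 18 alternatives. Canx was at 849, 813 and 946 CPM with Activin A and 818, 813 and 840.5 CPM without it, with overlapping groups (95% interval -0.20 to 0.045, adjusted p = 0.349 by edgeR). The ratio of Calr to Canx in CPM, a measure of unequal change and not of level, was 0.67, 0.713 and 0.59 with Activin A and 0.515, 0.519 and 0.51 without it. Between the leading transcripts in TPM, Calr-201 over Canx-201, the ratio was 1.03, 1.1 and 0.81 with Activin A and 0.807, 0.785 and 0.795 without it. There the library with Activin A replicate 3 nearly met the libraries without it.

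Sdf2l1, a partner of BiP and its J-domain proteins (ENSMUSG00000022769.9, chr16:17130138-17132383, minus strand), was at 9.78, 11.9 and 11.6 CPM with Activin A and 7.23, 7.07 and 8.67 CPM without it. It had the largest fall of the ER genes, 1.44-fold (log2 fold change -0.53 ± 0.12 SE, adjusted p = 0.00442 by edgeR), on 102 to 163 reads per library. Pdia4, a disulfide isomerase (ENSMUSG00000025823.9, chr6:47796141-47813430, minus strand), was at 168, 172 and 171 CPM with Activin A and 133, 145 and 148 CPM without it. The groups did not overlap, and it was 1.20-fold lower (log2 fold change -0.26 ± 0.052 SE, adjusted p = 0.00167 by edgeR).

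The remaining 3 folding and degradation genes were not called and overlapped between the groups. Dnajc3, a co-chaperone of BiP that also restrains PERK (ENSMUSG00000022136.8, chr14:118937976-118981697, plus strand), was at 64.5, 60.4 and 66.4 CPM with Activin A and 57.1, 61.2 and 58.2 CPM without it (adjusted p = 0.173 by edgeR). Dnajb9, a co-chaperone that holds IRE1 inactive, was at 11.9 ± 2.28 CPM with Activin A and 11.9 ± 0.425 CPM without it (SD, n = 3 each), with a 95% interval of the log2 fold change of -0.23 to 0.29. Herpud1, a part of ER-associated degradation, was at 11.2 ± 0.281 CPM with Activin A and 12.1 ± 1.89 CPM without it (SD, n = 3 each), with an interval of -0.12 to 0.37. Of the 5 chaperones that fell, limma on log2(TPM + 1) called 1, Calr, and the groups of Hsp90b1 overlapped in summed TPM but not in its coding transcript.

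None of the 4 sensors and factors of the ER response passed the test, and none had an unadjusted p under 0.05 by edgeR, nor did any alternative, DESeq2 included, call 1 of them. Eif2ak3, which encodes PERK (ENSMUSG00000031668.14, chr6:70844515-70905245, plus strand), was at 23.0, 23.0 and 22.1 CPM with Activin A and 21.3, 23.0 and 22.8 CPM without it. The range with Activin A lay inside the range without it, with a 95% interval of the log2 fold change of -0.18 to 0.14. Xbp1 (ENSMUSG00000020484.18, chr11:5520659-5525893, plus strand), the target of IRE1, was at 53.0, 52.3 and 51.0 CPM with Activin A and 51.1, 46.4 and 51.1 CPM without it, with an interval of -0.20 to 0.054. The annotated transcript Xbp1-201, of 267 codons, held 91.1% to 94.8% of its reads, and since the shortest intron annotated in the gene is 300 bases, the short IRE1 splice is not among the transcripts counted and its share cannot be read. Ern1, which encodes IRE1 itself, was at 12.0 ± 0.271 CPM with Activin A and 13.4 ± 1.22 CPM without it (SD, n = 3 each) and had an interval of -0.046 to 0.37. Atf6 was at 63.6 ± 0.867 CPM with Activin A and 68.5 ± 2.33 CPM without it (SD, n = 3 each); its libraries without Activin A were all higher, but it was not called (interval -0.009 to 0.23, adjusted p = 0.161 by edgeR).

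**Figure D3:**
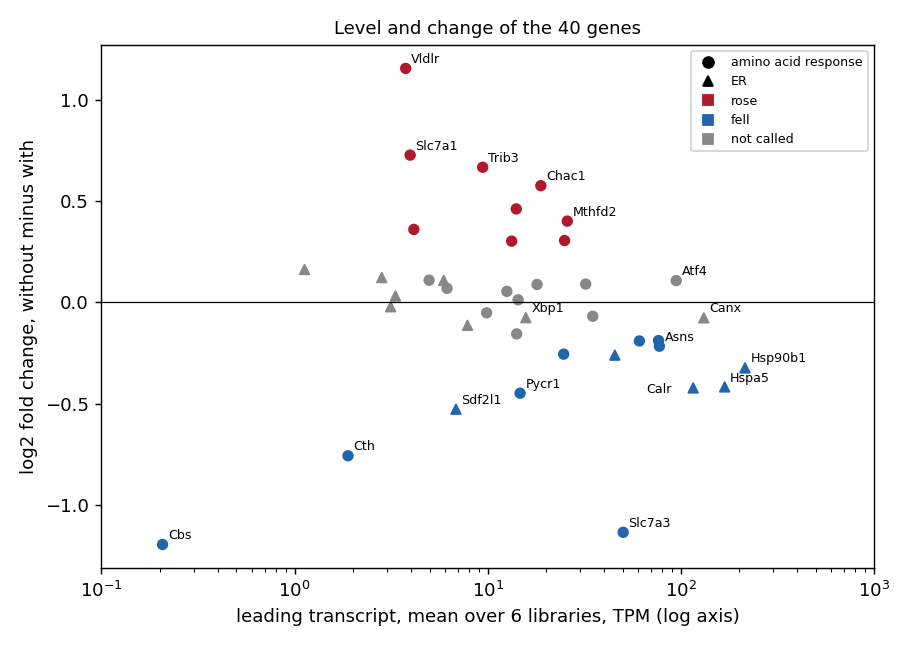
Mean TPM of the leading transcript over the 6 libraries (x axis, log scale) against the log2 fold change (y axis, without minus with Activin A) of the 40 genes; circles are amino acid response genes, triangles ER genes, and colours give the call. Atf4 ranks 5 of the 40 by this level, so most genes lie left of it. Among these are all that rose and also fallers such as Asns, Slc7a3, Pycr1, Cth and Cbs. Right of it lie the fallers Hsp90b1, Hspa5 and Calr and the uncalled Canx.

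Further genes around the 40 were taken from lists by function, whose shares of called genes stand beside the 29.2% of all tested genes. Limma on log2(TPM + 1) called 6 in place of 25 higher and 7 in place of 21 lower over all these lists. Of 17 tested genes linked to ATF4, 4 rose and 5 fell (52.9% called), with a median log2 fold change of -0.064. The riser with the smallest p was the glycine transporter Slc6a9, at 15.1 ± 1.74 CPM with Activin A and 21.1 ± 1.04 CPM without it (SD, n = 3 each; log2 fold change 0.47 ± 0.092 SE, adjusted p = 0.00139 by edgeR). The faller with the smallest p was the mitochondrial folate enzyme Aldh1l2, at 8.31 ± 0.408 CPM with Activin A and 4.24 ± 0.717 CPM without it (SD, n = 3 each; log2 fold change -0.97 ± 0.14 SE, adjusted p = 1.11e-04 by edgeR). Aldh1l2 had 54 to 132 reads per library, and its groups overlapped in summed TPM. It was at 0.988, 0.992 and 2.12 TPM with Activin A and 1.05, 1.10 and 0.904 TPM without it. Of 20 aminoacyl-tRNA synthetases, which charge tRNAs with amino acids and include ATF4 targets, 7 rose and none fell in this fit (35% called), with 2 called lower under upper-quartile scaling. The one with the smallest p was the alanyl-tRNA synthetase Aars, at 143 ± 3.49 CPM with Activin A and 166 ± 2.83 CPM without it (SD, n = 3 each; log2 fold change 0.22 ± 0.048 SE, adjusted p = 0.00329 by edgeR). Another list held 14 genes of eIF2, its kinases, its exchange factor and proteins that act on them. Of these 4 rose and none fell, which at 28.6% called is near the share of all genes. The one with the smallest p was Gcn1l1, the activator of GCN2, at 212 ± 13.4 CPM with Activin A and 256 ± 2.25 CPM without it (SD, n = 3 each; log2 fold change 0.27 ± 0.052 SE, adjusted p = 0.00124 by edgeR). In summed TPM the groups of Gcn1l1 overlapped. The other risers were the kinase GCN2, an eIF2 phosphatase subunit and an adaptor. No subunit of eIF2 or of its exchange factor was called. The synthetases had 2 to 10 risers, and this eIF2 list 2 to 5, on leaving out any 1 library.

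Of 30 further tested genes of ER folding and degradation, 6 rose and 7 fell (43.3% called). The secreted ER factor Manf fell, at 82.6 ± 2.54 CPM with Activin A and 64.7 ± 2.39 CPM without it (SD, n = 3 each; log2 fold change -0.35 ± 0.056 SE, adjusted p = 2.38e-04 by edgeR), and the ER-bound factor Creb3l2 rose, at 36.7 ± 0.566 CPM with Activin A and 47.8 ± 3.67 CPM without it (SD, n = 3 each; log2 fold change 0.38 ± 0.068 SE, adjusted p = 6.23e-04 by edgeR). Of 14 heat shock genes of the cytosol and mitochondria, only Hsph1, an HSP110 chaperone, was called (7.14%), and it rose, at 121 ± 7.87 CPM with Activin A and 138 ± 3.99 CPM without it (SD, n = 3 each; log2 fold change 0.19 ± 0.056 SE, adjusted p = 0.0183 by edgeR). That call was lost on leaving out with Activin A replicate 2 or without Activin A replicate 2 or 3. In summed TPM the groups of Creb3l2 overlapped.

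**Figure D4:**
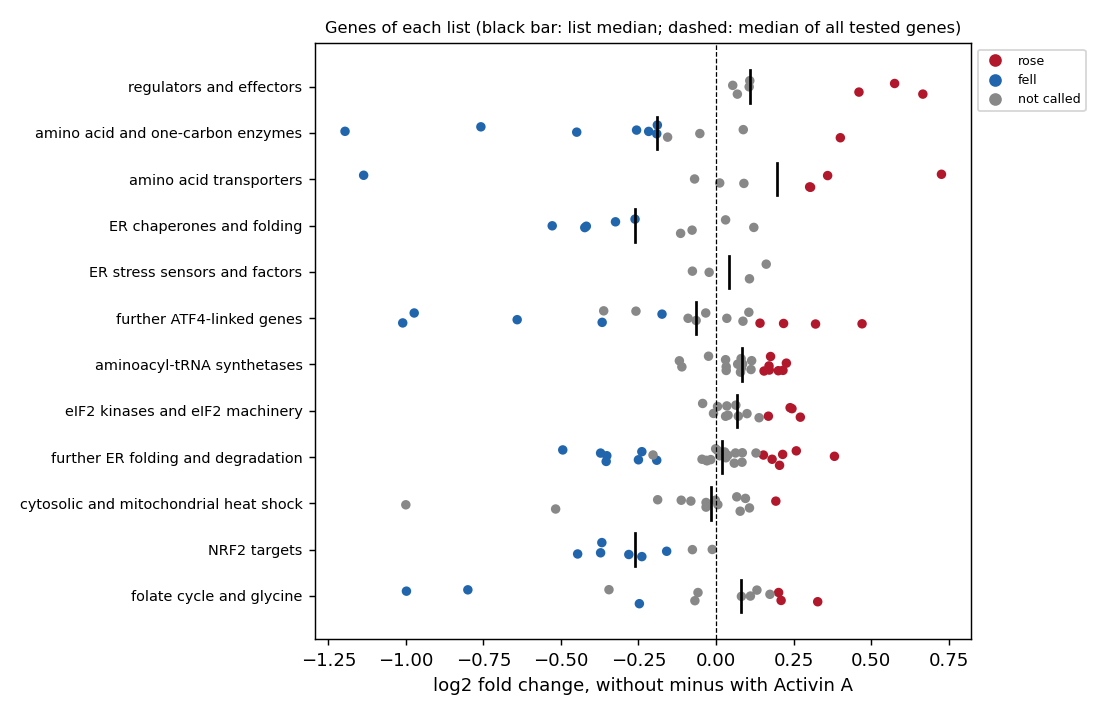
Log2 fold change (x axis, without minus with Activin A) of the tested genes of each list (y axis); a point is 1 gene, coloured by its call, the black bar is the median of the list and the dashed line that of all tested genes. The members' chaperone and enzyme rows lie mainly left of 0, and the regulator row right of it.

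For 27 of the 40 genes 1 transcript held at least 80% of the reads on average. Much of the exon sequence of Phgdh recurs elsewhere: 55.8% of its 31-base words were found in other annotated genes, 44.8% in the pseudogene Gm7901, to which 0 to 7.03 reads were assigned per library, so Phgdh is uncertain to that extent. For Dnajb9 the share was 10.8%, all in the pseudogene Gm6568, and for the other 38 genes it was at most 5.42%. Apart from the short Ddit3 model, exons of other genes on the same strand overlapped Hsp90b1 by 217 bases (Gm15344 and Gm25745) and Pdia4 by 14 bases (Mir704). Whether the counting used strand is not given in the sources used here. Without it, reads of a gene and an overlapping antisense gene cannot be told apart, and exons on the opposite strand overlapped Eif2ak3 by 485 bases (Gm43292), Psph by 452 bases (Cct6a), Hsp90b1 by 415 bases (1810014B01Rik) and Shmt1 by 184 bases (Smcr8), and Atf5, Ddit3, Ppp1r15a, Shmt2 and Dnajb9 by 82 bases or fewer.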

How the data were processed

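RNA-seq of 6 libraries was used, 3 with and 3 without Activin A, grouped by their titles. The library kit was a stranded mRNA kit, per the labels' protocols. The authors deposited salmon tables, in which, per the file headers, each of 133618 transcripts has an estimated count, not normalized, and a TPM, scaled by effective length and library total; salmon, DESeq2 and edgeR stand in the submitters' processing notes without versions. Their genome build, annotation and strand setting: not given in the sources used here. Transcripts were matched to GENCODE release M21 (GRCm38) with the version ignored; 219 did not match, held 0.1305% to 0.1488% of the reads and were left out. The estimated counts of a gene's transcripts were added up and rounded. edgeR 4.0.16 in R 4.3.3 was used with filterByExpr (minimum count 10, minimum total 15), TMM scaling and a robust quasi-likelihood F test, with Benjamini-Hochberg adjustment over the 15448 genes tested and a threshold of 0.05. The fit was tested on simulated data in which all genes had the same spread and no gene with as few reads as Cbs was changed. Standard errors were computed as |log2 fold change| / √F, and intervals are at 95%. The 18 alternatives used DESeq2 1.42.0, limma 3.58.1 on log2(TPM + 1), scaling by RLE or upper quartile, other filters, a length offset, removal of the GC and length trend with mgcv 1.9.3, a replicate block, libraries left out in turn, and with Activin A replicate 3 (lowest depth) and without Activin A replicate 1 (label at odds) left out together.

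All 40 genes are named. Values in every library are given for those called at 1.5-fold or more, for Atf4, Ddit3, Xbp1, Hspa5 and Eif2ak3, for those whose call changed under an alternative, and for Chac1, Mthfd2, Calr and Canx, which were added after their values were seen. From each other list the called gene with the smallest p in each direction is named. Mthfd1l is named beside Mthfd1 and was added after its values were seen. The genes and lists were chosen with earlier results of these data known.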

Additional observations from a re-analysis of the deposited data

How the results depend on the processing

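Of the 22 called genes, 9 kept their call and direction in all 18 alternatives (Trib3, Chac1, Sesn2, Mthfd2, Slc7a1 and Vldlr higher, Cth, Slc7a3 and Calr lower), and no member's call turned direction in any of them. Limma on log2(TPM + 1) gave 9 called members in place of 22, with 2 amino acid response genes lower in place of 8 and 1 ER gene lower in place of 5. In the other lists together it called 6 genes higher in place of 25 and 7 lower in place of 21. The transcript length offset left 3 amino acid response genes lower, and 9 genes higher and 12 lower in the other lists. Leaving out 1 library at a time gave 19 to 25 called members, 5 to 10 amino acid response genes lower, 11 to 33 genes of the other lists higher and 15 to 27 lower. Over all genes, 4505 were called, against 3055 with DESeq2, 1559 with limma and 2050.0 with the length offset. The causes were not tested. Of the 18 members not called, 5 were called in an alternative (Atf4, Psph, Aldh18a1, Slc3a2 and Dnajc3) and 13 in none. The median log2 fold change of the ER genes was -0.11 with upper-quartile scaling and -0.125 on leaving out replicate 2 with Activin A, and that of the amino acid response genes was 0.014 with both doubted libraries left out, where 22 members were called. With the replicate number as a block, 22 members were called and 2125 genes rose and 2297 fell over all genes, and no member's call changed. Deviations of same-numbered libraries correlated at -0.047, 0.012 and -0.043 across 11396 genes, so no pairing by number was seen. With 3 libraries per group this cannot show that the samples were handled unpaired. With 51 to 102 reads for Cth and 6 to 33 for Cbs per library, depth limits these genes.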

Other observations

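Among neighbouring pathways, targets of NRF2 and genes of the folate cycle were listed too, beside 29.2% called of all tested genes. Of 8 tested targets of the oxidative stress factor NRF2, 6 were lower without Activin A (75.0% called), none was higher, and the median log2 fold change was -0.26. Gclm, the modifier subunit of the enzyme that starts glutathione synthesis, was at 69.5, 68.6 and 67.2 CPM with Activin A and 53.9, 54.6 and 50.2 CPM without it (log2 fold change -0.37 ± 0.057 SE, adjusted p = 1.86e-04 by edgeR). Limma on log2(TPM + 1) called 1 gene of this list lower, and leaving out 1 library gave 4 to 6. Slc7a11, which is known as an NRF2 target too, rose in the same libraries (log2 fold change 0.36 ± 0.073 SE, adjusted p = 0.00171 by edgeR).

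Of 13 genes of the folate cycle and glycine cleavage, 3 rose, 3 fell and 7 were not called (46.2% called), with a median log2 fold change of 0.082. Mthfd1, the trifunctional folate enzyme of the cytosol (ENSMUSG00000021048.7, chr12:76255298-76319803, plus strand), was at 749, 766 and 718 CPM with Activin A and 379.9, 368 and 371 CPM without it. Its level was 2.00-fold lower without Activin A, with no overlap (log2 fold change -0.998 ± 0.048 SE, adjusted p = 1.09e-09 by edgeR), while the mitochondrial enzyme Mthfd2 rose 1.32-fold. Per length, the ratio of the leading transcripts in TPM, Mthfd1-201 over Mthfd2-201, was 4.88, 4.48 and 3.95 with Activin A and 1.61, 2.02 and 1.82 without it. Mthfd1l, a further mitochondrial folate enzyme, did not share this rise and was not called (log2 fold change -0.09 ± 0.048 SE, adjusted p = 0.185 by edgeR). The riser of this list with the smallest p was Mtr, which remakes methionine from homocysteine, at 81.1 ± 6.60 CPM with Activin A and 93.5 ± 1.13 CPM without it (SD, n = 3 each; log2 fold change 0.21 ± 0.061 SE, adjusted p = 0.0179 by edgeR). The risers of this list numbered 0 to 4 on leaving out 1 library. In summed TPM the groups of Mtr overlapped.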
